A study of Mus musculus with 4 samples.

Results

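The genes described are 9 antiviral effector genes that interferons switch on strongly: Ifit1, Ifit2, Ifit3, Ifit3b, Rsad2, Cmpk2, Isg15, Mx1 and Mx2. They were taken by symbol from a count table of 33677 gene symbols, and all 9 were found and passed the filter on low counts. The cells were PyMT-A, a line from a mammary tumour of an FVB/NJ mouse, named for the polyoma middle T oncogene and grown in culture in medium with serum, and their poly(A)-selected RNA was sequenced. The Jagged1 cells (2 libraries) had been infected with the retrovirus PMSCV-Jagged1, which carries a ligand of Notch receptors, and the vector cells (2 libraries) with PMSCV-puro, so both lines had been through a retroviral infection. The labels give no age, passage or time after infection and do not say whether a line was 1 clone, and nothing in them says that the libraries of a line were separate cultures, so p-values measure only the spread between these libraries, which may be technical.

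Type I and type III interferons signal through JAK kinases to ISGF3, a complex of transcription factors that binds the interferon-stimulated response element (ISRE) beside its target genes. IFIT proteins bind foreign RNA or one another and restrain its translation. Viperin, the product of Rsad2, converts CTP into a nucleotide that stops viral RNA synthesis, and Cmpk2, the neighbouring gene, encodes a mitochondrial kinase of pyrimidine nucleotides. ISG15 is a ubiquitin-like protein that is attached to other proteins, and Mx proteins are dynamin-like GTPases that trap viral components. In epithelial tumour cells these genes are widely used as a readout of interferon signalling.

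The 9 genes lie in 4 places of the GRCm38 genome. In the GENCODE M21 annotation Ifit2 (chromosome 19, 34550694 to 34576419), Ifit3 (34583531 to 34588731), Ifit3b (34607970 to 34613401) and Ifit1 (34640871 to 34650009) stand in this order on the plus strand of chromosome 19. Rsad2 (chromosome 12, 26442746 to 26456452, minus strand) and Cmpk2 (26469204 to 26479837, plus strand) point away from each other with 12751 bases between them. Mx1 (chromosome 16, 97447035 to 97462907, minus strand) and Mx2 (97535308 to 97560900, plus strand) do the same with 72400 bases between them, and Isg15 is on chromosome 4 (156199424 to 156200818, minus strand). Exons of other annotated genes overlapped 0 exonic bases of each of the 9 genes on either strand. The annotation lists Mx2 as a polymorphic pseudogene; most laboratory strains carry Mx1 and Mx2 alleles that give no full-length protein, so the reads of these genes report transcripts only.

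The sequences before the starts of 5 of the genes are shown because the ISRE core can be read in them. RefSeq windows (GRCm38.p6) were found for 7 of the 9 genes, Mx1 and Mx2 being the others, and the 200 bases before each start were searched on both strands for TTTC, any 2 bases and TTTC again, which read GAAA, any 2 bases and GAAA on the other strand. The letters stood in 5 of the 7 genes, Ifit1, Ifit3, Ifit3b, Rsad2 and Isg15. Over all genes with a window they stood in 2.65% of 27025 genes and in 2.27% of all 32851 windows. They stood in neither of the windows of Ifit2 nor in that of Cmpk2. Other letters and bases outside the windows were not searched, so this does not say that these genes lack an ISRE. Capitals mark the matches, and each sequence runs 5′ to 3′ towards the gene and ends at the last base before its RefSeq start. That start can differ from the GENCODE position given above. The Ifit1 window, for one, ends at 34640888, inside the GENCODE bounds of the gene.
Ifit1 (chr19:34640689-34640888, plus strand): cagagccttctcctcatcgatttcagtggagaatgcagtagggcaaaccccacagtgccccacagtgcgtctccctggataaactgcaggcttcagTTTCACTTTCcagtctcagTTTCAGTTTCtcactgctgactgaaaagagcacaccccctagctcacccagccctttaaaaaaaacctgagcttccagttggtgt
Ifit3 (chr19:34583329-34583528, plus strand): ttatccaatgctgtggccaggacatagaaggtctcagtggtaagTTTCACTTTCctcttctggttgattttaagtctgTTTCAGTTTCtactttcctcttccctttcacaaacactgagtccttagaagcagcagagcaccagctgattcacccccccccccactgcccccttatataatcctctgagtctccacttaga
Ifit3b (chr19:34607757-34607956, plus strand): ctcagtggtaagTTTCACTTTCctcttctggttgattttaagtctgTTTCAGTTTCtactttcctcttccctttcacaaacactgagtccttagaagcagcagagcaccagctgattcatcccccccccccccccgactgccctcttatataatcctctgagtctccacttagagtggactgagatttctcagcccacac
Rsad2 (chr12:26456453-26456652, minus strand): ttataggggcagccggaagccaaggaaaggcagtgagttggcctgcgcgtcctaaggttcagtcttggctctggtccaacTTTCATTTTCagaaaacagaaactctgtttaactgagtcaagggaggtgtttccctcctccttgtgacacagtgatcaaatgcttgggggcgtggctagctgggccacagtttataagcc
Isg15 (chr4:156200819-156201018, minus strand): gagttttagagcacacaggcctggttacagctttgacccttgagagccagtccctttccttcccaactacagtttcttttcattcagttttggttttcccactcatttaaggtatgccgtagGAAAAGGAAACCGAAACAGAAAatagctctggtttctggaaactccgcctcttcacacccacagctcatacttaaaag
The windows of Ifit1, Ifit3 and Ifit3b each held the same pair of matches, TTTCACTTTC followed by TTTCAGTTTC. These began 104 and 85 bases before the start in Ifit1, 156 and 122 in Ifit3, and 188 and 154 in Ifit3b. Rsad2 had 1 match, TTTCATTTTC, which began 120 bases before the start. In Isg15 the 3 matches overlap in 1 run and began 78, 72 and 66 bases before the start. A match in these letters is a description of the window and not a measured binding site.

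Total counts were 20835208 and 13549258 in Jagged1 1 and 2, and 15609720 and 12136227 in vector 1 and 2. The 9 genes together took 0.123% and 0.120% of the counts in Jagged1 1 and 2, against 0.228% and 0.210% in vector 1 and 2. Jag1, the transduced gene, fitted the labels, with 5676 and 4493 reads in the Jagged1 libraries and 159 and 112 in the vector libraries. Libraries of 1 line differed beyond counting noise, with a chi-square over genes of 50.6 (Jagged1) and 32.3 (vector) per degree of freedom, which does not say whether they were separate cultures. Vector 1 had the highest share of ribosomal (18S) reads and the lowest share of mitochondrial reads, and Jagged1 1 came next in both. The 18S row took 0.177% and 0.0810% of the counts in Jagged1 1 and 2, against 0.982% and 0.0735% in vector 1 and 2. Mitochondrial genes took 1.81% and 2.11% in Jagged1 1 and 2, against 1.42% and 2.12% in vector 1 and 2. Vector 1 was also the higher vector library for Rsad2, Cmpk2 and Isg15, whose log2 fold changes without it were -1.21, -0.79 and -0.57. It was the higher one for Ifit3, Ifit3b, Mx2 and, by little, Mx1 as well. Their values without it were -1.28, -0.91, -0.38 and -1.02. Vector 2 was the higher one for Ifit1 and Ifit2. The epithelial markers Epcam, Cdh1, Krt8 and Krt18 were between 555.8 and 1188 CPM in every library, while Krt19 and Krt5 had at most 2 reads. The other keratins of the list varied more: Krt14 had 740.3 and 356 CPM in Jagged1 1 and 2, against 453 and 225 CPM in vector 1 and 2, and Krt7 had 1730.1 and 1042 CPM in Jagged1 1 and 2, against 2443 and 1519 CPM in vector 1 and 2. Of the T and NK cell markers Cd3e, Cd4, Cd8a and Klrb1c were at 0 in all libraries, while Cd3d and Nkg7 were not among the counted symbols. Ptprc, the pan-leukocyte gene, had at most 1 read in a library. Endothelial markers summed to 0.58 and 6.35 CPM in Jagged1 1 and 2, against 0.66 and 2.85 CPM in vector 1 and 2. Fibroblast markers summed to 10.5 and 63.1 CPM in Jagged1 1 and 2, against 4.42 and 6.91 CPM in vector 1 and 2, with Lum at 0 and with 376 reads of Col1a1 and 280 of Col1a2 in Jagged1 2. Pdgfrb had 9 and 103 reads and Dcn 6 and 23 in Jagged1 1 and 2, and both were at 0 in the vector libraries. Pdgfra was present in every library, with 166 and 93 reads in Jagged1 1 and 2, against 51 and 61 in vector 1 and 2. Without Jagged1 2 the log2 fold changes of the 9 genes were -1.32 to -0.40, and Jagged1 1 was itself above both vector libraries in the fibroblast sum. Macrophage and leukocyte markers summed to 174 and 397 CPM in Jagged1 1 and 2, against 209.8 and 238 CPM in vector 1 and 2; Cd14, which epithelial cells also express, made up 172 to 386 CPM of these sums, and Lyz2 had 0 and 89 reads in Jagged1 1 and 2 and 0 and 71 in vector 1 and 2. The part of these markers in the results was not tested further.

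All 9 genes were lower in Jagged1 cells than in vector cells. These are bulk libraries, in which fewer cells that express a gene and less RNA of it per cell cannot be told apart. Their log2 fold changes (Jagged1 over vector) ran from -1.39 for Rsad2 to -0.46 for Mx2, with a median of -0.99, against a median of -0.003 over the 13299 genes tested. The Jagged1 libraries were the lower 2 of the 4 in 9 of 9 genes and in 15.1% of all tested genes. A negative log2 fold change, which 9 of 9 had, was found in 50.5% of all tested genes. At an unadjusted p under 0.05 stood 9 of 9, lower, against 2.15% of all tested genes. After adjustment over all 13299 genes edgeR's quasi-likelihood test called 0 of the 9, and 1 gene in all (0.00752%), Jag1. DESeq2 called 4 of the 9, Ifit3, Ifit3b, Rsad2 and Cmpk2, where it called 0.211% of all genes lower. With limma-voom 0 of the 9 were called, and 0.00752% of all genes. Without the filter on low counts edgeR called 5 of the 9 (0.686% of all genes were called, 0.276% lower), with a minimum mean of 5 CPM it called 0 (0.00962% of all genes), and with replicate number as a block it called 2 (0.0752% lower). Leaving out vector 1 or vector 2 also gave 0 of 9 in edgeR; without Jagged1 1 the count was 5 (Ifit3, Ifit3b, Rsad2, Cmpk2 and Mx1; 0.365% of all genes were called lower), and without Jagged1 2 it was 1 (Ifit3; 0.23%). The direction was negative for every one of the 9 genes in each of these fits. All of them used the same libraries, and the Jagged1 ones were the lower 2 of the 4 in 9 of 9 genes, so the sign could hardly turn. The members had been picked with earlier results of these data known, so these counts describe the 9 genes and do not test them as a list.

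**Figure D1:**
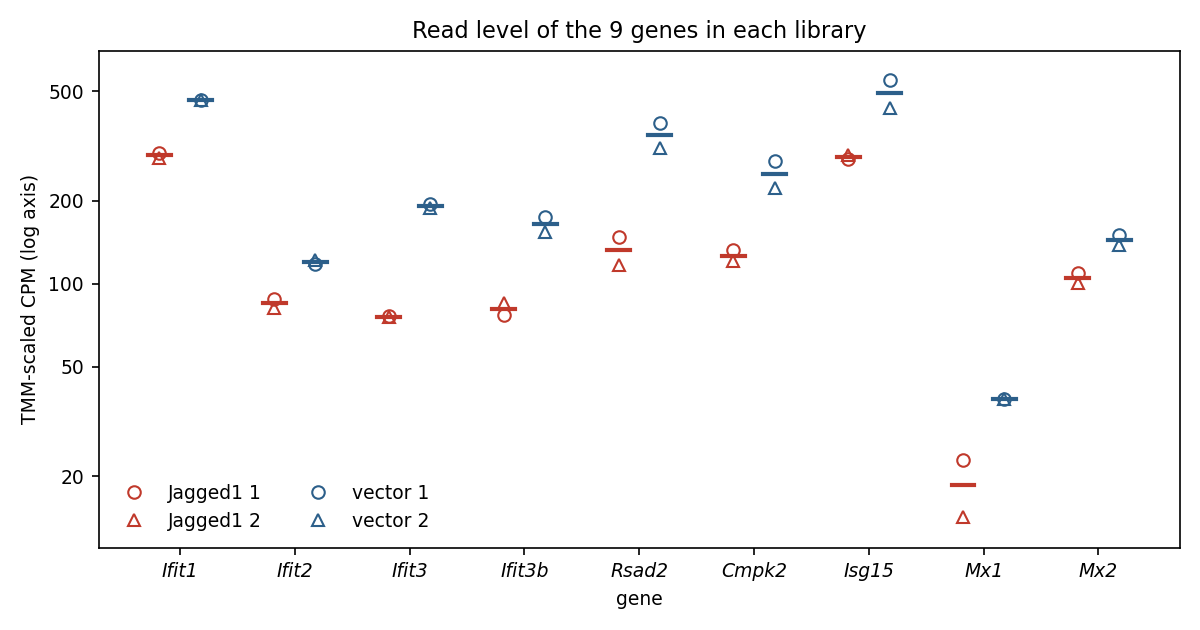
TMM-scaled CPM (log axis) of the 9 genes, with Jagged1 libraries in red left of vector libraries in blue; symbols are single libraries and bars are means of 2. Every Jagged1 symbol lies below both vector symbols of its gene, with the closest approach at Mx2 (108.9 CPM in Jagged1 1, 138 CPM in vector 2).

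The IFIT genes of chromosome 19 differed from one another in the size of the difference. Ifit3, whose human counterpart steadies IFIT1 on RNA, had 76.5 and 75.5 CPM in Jagged1 1 and 2, against 194 and 187 CPM in vector 1 and 2. The Jagged1 libraries were almost equal and stood at 39.8% of the vector mean (76.0 ± 0.705 CPM in Jagged1 against 191 ± 4.83 CPM in vector cells, SD, n = 2 each). The log2 fold change of Ifit3 was -1.33 ± 0.14 (SE; adjusted p = 0.46, edgeR), and its unadjusted p was the fourth lowest of all genes tested. Ifit3b, a close copy of Ifit3, had 76.7 and 85.1 CPM in Jagged1 1 and 2, against 175 and 154 CPM in vector 1 and 2 (log2 fold change -1.02 ± 0.16; adjusted p = 0.712, edgeR). The pair of copies was therefore low in both Jagged1 libraries and high in both vector libraries. With DESeq2 the adjusted p was 2.58e-08 for Ifit3 and 0.00105 for Ifit3b.

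Ifit1, which binds RNA that lacks cap methylation, had the most reads of the IFIT genes. It stood at 298 and 287 CPM in Jagged1 1 and 2, against 463 and 466 CPM in vector 1 and 2, which is 63.0% of the vector mean. Its log2 fold change was -0.67 ± 0.15 (adjusted p = 0.914, edgeR; 0.0574 with DESeq2). Replicates of each line were close together and the lines did not overlap. Ifit2, which pairs with other IFIT proteins, had 88.0 and 81.9 CPM in Jagged1 1 and 2, against 118 and 122 CPM in vector 1 and 2 (-0.50 ± 0.14; adjusted p = 0.9999, edgeR). The smallest gap between the lines among the IFIT genes was that of Ifit2, whose higher Jagged1 library stood 25.3% under its lower vector library.

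How far Ifit3 and Ifit3b can be told apart depends on where reads fall. The longest annotated transcripts, of 1745 and 2000 bases, aligned over 1700 columns with 97.8% identity, 34 mismatches and 3 gap positions. Of all stretches of 50 bases in the Ifit3 transcript 51.2% also occur in Ifit3b, and of stretches of 100 bases 31.7%. Read length is not given in the sources used here, nor is the treatment of reads with several matches. When the reads of both genes were summed into 1 row, the log2 fold change was -1.18 (adjusted p = 0.67, edgeR). The 300-base promoter windows of the copies aligned over 274 columns with 94.5% identity, 1 mismatch and 14 gap positions. For Ifit1, Mx1, Mx2 and Isg15 between 3.96% and 7.13% of the stretches of 50 bases occur in another gene, and for Ifit2, Rsad2 and Cmpk2 it was 0.

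The neighbours Rsad2 and Cmpk2 stood at 38.2% and 50.5% of their vector means, Rsad2 being the lower. Rsad2 had 148 and 117 CPM in Jagged1 1 and 2, against 384 and 310.3 CPM in vector 1 and 2 (133 ± 22.02 CPM in Jagged1 against 347 ± 52.1 CPM in vector cells, SD, n = 2 each). Even the higher Jagged1 library stood 52.3% under the lower vector library. The log2 fold change of Rsad2 was -1.39 ± 0.20 (adjusted p = 0.712, edgeR; 5.57e-06 with DESeq2), at rank 73 from the lowest of 13299. Cmpk2 had 132 and 120.5 CPM in Jagged1 1 and 2, against 278 and 222 CPM in vector 1 and 2, a log2 fold change of -0.99 ± 0.18 (adjusted p = 0.879, edgeR; 0.00422 with DESeq2). In both genes library 1 of each line was the higher one.

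Isg15 had 284 and 294 CPM in Jagged1 1 and 2, against 548 and 435 CPM in vector 1 and 2. The Jagged1 libraries were close together, the vector libraries were not, and the lines did not overlap. The log2 fold change was -0.77 ± 0.18 (adjusted p = 0.914, edgeR; 0.0668 with DESeq2). It was -0.57 without vector 1 and -0.93 without vector 2.

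Mx1 was the gene with the fewest reads, 473 and 197 in Jagged1 1 and 2, against 580 and 470 in vector 1 and 2. In CPM these were 22.9 and 14.2 in Jagged1 cells, against 38.3 and 38.2 in vector cells. The vector libraries were nearly equal, while Jagged1 2 stood well under Jagged1 1. The log2 fold change of Mx1 was -1.04 ± 0.26 (adjusted p = 0.925 with edgeR and 0.17 with DESeq2). It was -1.43 without Jagged1 1 and -0.74 without Jagged1 2. Mx2, whose rat and mouse forms act in the cytoplasm, had 108.9 and 100.5 CPM in Jagged1 1 and 2, against 150.1 and 138 CPM in vector 1 and 2. It stood at 72.6% of the vector mean (-0.46 ± 0.15; adjusted p = 0.9999, edgeR), the smallest difference of the 9 genes.

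**Figure D2:**
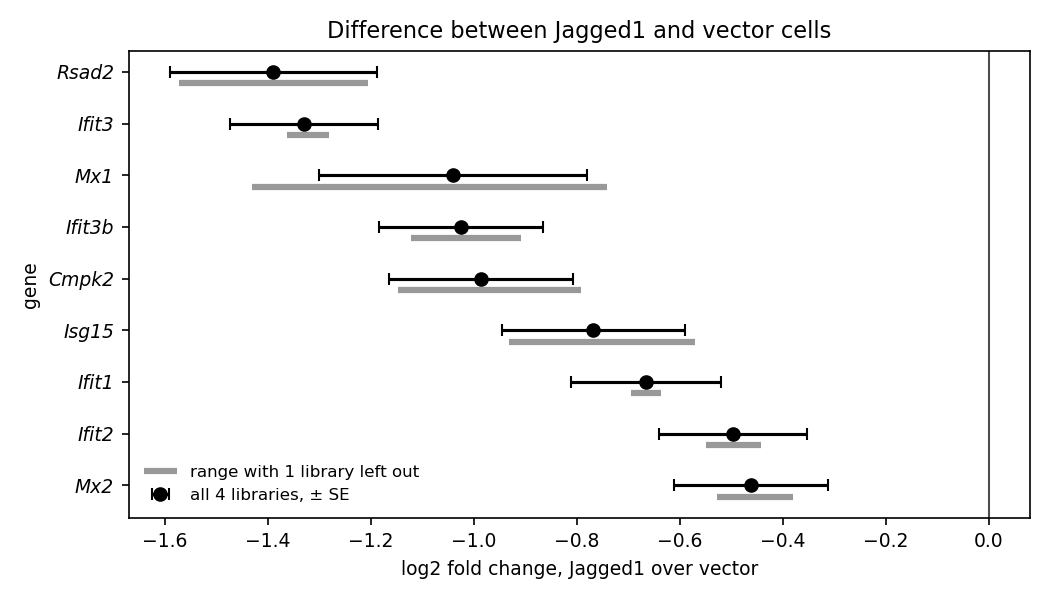
Log2 fold change of each of the 9 genes, Jagged1 over vector, with its standard error (points and whiskers) and, under it, the range of values with 1 library left out at a time (grey bars). All points and bars lie left of 0; Ifit3 and Ifit1 have the narrowest ranges and Mx1 the widest, from -1.43 to -0.74.

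Read ratios within a library need no scaling between libraries, and in 3 pairs of neighbouring genes and in the copies Ifit3 and Ifit3b they did not overlap between the lines, while those of Ifit1 and its neighbour Ifit1bl2 did. The ratio of Ifit3 to Ifit2 reads was 0.869 and 0.922 in Jagged1 1 and 2, against 1.65 and 1.54 in vector 1 and 2. Exact binomial 95% intervals of these ratios, which cover counting error only, were 0.812 to 0.930 and 0.847 to 1.00 in Jagged1 cells and 1.55 to 1.75 and 1.44 to 1.64 in vector cells. Ifit3 was thus the lower-read gene of the pair in both Jagged1 libraries and the higher-read one in both vector libraries. The ratio of Rsad2 to Cmpk2 was 1.12 and 0.971 in Jagged1 1 and 2, against 1.38 and 1.40 in vector 1 and 2. The ratio of Mx1 to Mx2 was 0.210 and 0.141 in Jagged1 1 and 2, against 0.255 and 0.276 in vector 1 and 2, and that of Ifit3 to Ifit3b was 0.997 and 0.887 in Jagged1 1 and 2, against 1.11 and 1.22 in vector 1 and 2. In these 4 pairs the lines did not overlap. Nor did they for Isg15 to Usp18, genes that are not neighbours, at 1.19 and 1.30 in Jagged1 1 and 2, against 1.74 and 1.37 in vector 1 and 2. How often ratios of other gene pairs separate the lines was not counted, so these separations only describe the pairs. The ratio of Isg15 to Ifit1 did overlap, at 0.951 and 1.03 in Jagged1 1 and 2 and 1.19 and 0.935 in vector 1 and 2. With 2 libraries against 2 an exact permutation test cannot go below p = 0.333, so none was run.

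**Figure D3:**
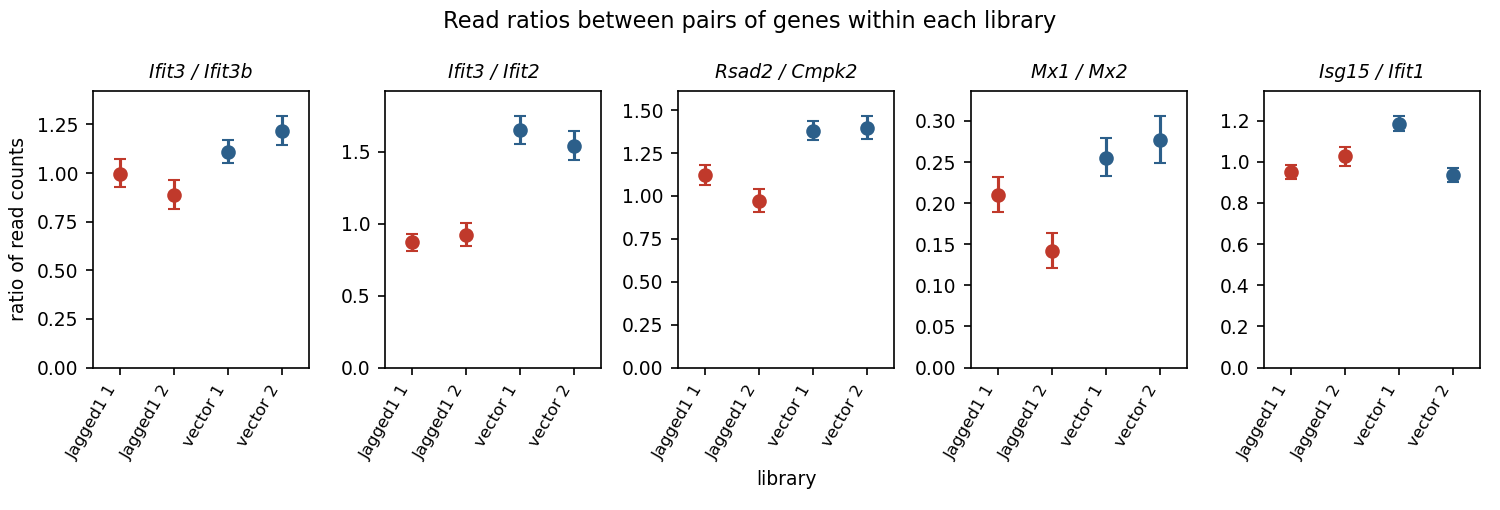
Ratio of read counts between 2 genes within each library, with exact binomial 95% intervals for counting error; Jagged1 libraries are red and stand left of the vector libraries in blue. Ifit3 to Ifit2 shows the widest separation of the lines, and Isg15 to Ifit1 shows overlapping lines.

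Per length of exon, the order of levels was the same in both lines. In mean CPM per kilobase of annotated exon, Isg15 led with 382 in Jagged1 and 651 in vector cells, followed by Ifit1 with 110.1 in Jagged1 and 175 in vector cells. Ifit3 came next, with 43.5 in Jagged1 and 109 in vector cells, and Ifit3b with 40.4 in Jagged1 and 82.2 in vector cells. These 4 genes stood clear of the rest in Jagged1 cells. Rsad2 stood at 30.6 in Jagged1 and 80.1 in vector cells, and Cmpk2 at 30.4 in Jagged1 and 60.1 in vector cells. Mx2 stood at 29.0 in Jagged1 and 39.9 in vector cells, and Ifit2 at 21.6 in Jagged1 and 30.5 in vector cells. Mx1 was the lowest, at 4.90 in Jagged1 and 10.1 in vector cells. In Jagged1 cells the single-library values of Rsad2 (34.2 and 27.0), Cmpk2 (31.8 and 28.9) and Mx2 (30.1 and 27.8) overlapped, so their order there is not settled. In vector cells only the neighbours Ifit3b (87.5 and 77.0) and Rsad2 (88.6 and 71.6) overlapped.

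Other IFIT genes shared the direction. Ifit1bl1, a relative of Ifit1 between Ifit3 and Ifit3b on the minus strand, had 39 and 54 reads in Jagged1 1 and 2, against 126 and 101 in vector 1 and 2 (log2 fold change -1.53 ± 0.43; adjusted p = 0.9999, edgeR). Ifit1bl2 starts head to head with Ifit1, and 127 bases lie between the annotated genes, so its promoter window (chr19:34640744-34640943, minus strand) overlaps the one printed for Ifit1. It had 12.2 and 9.95 CPM in Jagged1 1 and 2, against 19.7 and 18.2 CPM in vector 1 and 2 (-0.78 ± 0.21; adjusted p = 0.976, edgeR). The ratio of Ifit1 to Ifit1bl2 reads overlapped between the lines, at 24.5 and 28.8 in Jagged1 1 and 2 and 23.4 and 25.6 in vector 1 and 2.

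The enzymes that attach and remove ISG15 had smaller differences than Isg15 itself. Of 7 tested genes 6 had negative values (50.5% of all tested genes had) and 0 passed in edgeR (2 lower and 0 higher at an unadjusted p under 0.05, against 2.15% of all tested genes lower), with a median of -0.19. Ube2l6, the conjugating enzyme, was at -0.59 ± 0.19, Usp18, which removes ISG15 and blocks the interferon receptor, at -0.45 ± 0.14, Uba7, the activating enzyme, at -0.28 ± 0.18 and Herc6, the mouse ligase, at -0.19 ± 0.18. Usp18 had 238 and 226 CPM in Jagged1 1 and 2, against 316 and 318 CPM in vector 1 and 2. The difference between Isg15 and these genes was not tested.

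Upstream of the 9 genes, reads of interferon genes were few. Of the 17 interferon genes found, 11 were at 0 in all libraries, Ifng among them, and 0 passed the filter on low counts. Ifnb1, the gene of interferon beta, had 1 and 0 reads in Jagged1 1 and 2, against 10 and 5 in vector 1 and 2. Summed over the libraries of a line and divided by their totals, this was a ratio of 0.0538 (exact 95% interval 0.00128 to 0.35, counting error only). Both lines were near the detection floor of 3 reads a library, and these counts did not enter the edgeR test. The other interferon genes together had 7 reads in Jagged1 and 14 in vector libraries (ratio 0.403, 0.138 to 1.07).

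Receptors and kinases did not share the direction. Of 9 tested genes 7 had positive and 2 negative values, with a median of 0.13, and 0 passed in edgeR (0 at an unadjusted p under 0.05). Ifnar2, a chain of the type I receptor, was at 0.37 ± 0.35, Ifngr2 at 0.24 ± 0.27, Ifngr1 at 0.18 ± 0.18 and Jak2 at 0.17 ± 0.15. Ifnar1, the other chain of the type I receptor, had 79.4 and 97.4 CPM in Jagged1 1 and 2, against 89.7 and 82.4 CPM in vector 1 and 2, so the lines overlapped. The median of this list was 0.36 without Jagged1 1 and -0.16 without Jagged1 2, which turned its sign.

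Transcription factors of the pathway had a median nearer to 0 than the 9 effectors, a difference that was not tested. All 8 tested genes had negative values (median -0.33), where 50.5% of all tested genes had. In 5 the Jagged1 libraries were the lower 2 of the 4, against 15.1% of all tested genes. In edgeR 0 passed, and 2 were lower at an unadjusted p under 0.05, against 2.15% of all tested genes. Irf7, which interferons induce and which amplifies the response, had 578 and 537 CPM in Jagged1 1 and 2, against 835 and 684 CPM in vector 1 and 2 (-0.45 ± 0.17). Irf5 was at -1.15 ± 0.40 from 21 to 45 reads a library, Irf1 at -0.37 ± 0.22 and Stat2 at -0.34 ± 0.24. Irf9, a subunit of ISGF3, stood at -0.07 ± 0.14. The median was -0.17 without Jagged1 1. Inhibitors of the pathway had a median of 0.02, with 4 of 8 positive and 4 negative, and the median turned to -0.07 without vector 2 and was 0.08 without vector 1. Beside Usp18, Socs1 was at -0.30 ± 0.34, Socs3 at 0.19 ± 0.28 and Ptpn6 at 0.16 ± 0.19.

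The list of nucleic acid sensing holds sensors together with adaptors, kinases and the RNA-editing enzyme Adar. Of 13 tested genes 12 had negative values (median -0.23; 50.5% of all tested genes had negative values). In 8 the Jagged1 libraries were the lower 2 of the 4, against 15.1% of all tested genes. In edgeR 0 passed, and 2 were lower at an unadjusted p under 0.05, against 2.15% of all tested genes. The median was -0.13 without vector 1 and -0.14 without Jagged1 1. Dhx58, a helicase of the RIG-I family, was at -0.61 ± 0.17, Zbp1, a sensor of Z-form nucleic acid, at -0.60 ± 0.15, the kinase gene Ikbke at -0.53 ± 0.52 and Ifih1, which encodes the sensor MDA5, at -0.35 ± 0.15. Ddx58, the gene of RIG-I, had 344 and 336 CPM in Jagged1 1 and 2, against 358 and 376 CPM in vector 1 and 2 (-0.11 ± 0.15). Tmem173, the gene of STING, was the positive one, at 0.13 ± 0.15.

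The wider set of interferon-stimulated genes had a median nearer to 0 as well. Of 45 tested genes outside the 9, 40 were negative and 5 positive, with a median of -0.31. In 25 the Jagged1 libraries were the lower 2 of the 4 (55.6%, against 15.1% of all tested genes), and 0 passed in edgeR (9 lower and 1 higher at an unadjusted p under 0.05, against 2.15% of all tested genes lower). The 4 with the largest values were Trim30d (-1.23 ± 0.28), Oasl1 (-1.02 ± 0.16), Tor3a (-0.68 ± 0.14) and Rnf213 (-0.64 ± 0.18). Of the 45 genes 2, Trim30d and Oasl1, were below the median of the 9 effectors, and 10 were below Mx2, the highest of the 9. Relatives of the 9 genes that interferons do not induce had a median of -0.02 over 10 genes (0.06 without vector 1), in 1 of which the Jagged1 libraries were the lower 2 of the 4. Cmpk1, the cytosolic counterpart of Cmpk2, had 92.5 and 87.5 CPM in Jagged1 1 and 2, against 89.7 and 88.4 CPM in vector 1 and 2 (0.02 ± 0.14), and the largest values were those of the dynamin genes Dnm1 (0.71 ± 0.53) and Dnm2 (-0.20 ± 0.15), of Ttc1 (-0.15 ± 0.21) and of Ufm1 (-0.07 ± 0.16), a ubiquitin-like protein gene. Housekeeping genes had a median of -0.08 over 12 genes (-0.04 without Jagged1 2), with Gusb at 0.27, Hprt at -0.20 and Gapdh at -0.14. Of these 12 genes 9 were negative. In 5 of them the Jagged1 libraries were the lower 2 of the 4 (41.7%, against 15.1% of all tested genes).

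**Figure D4:**
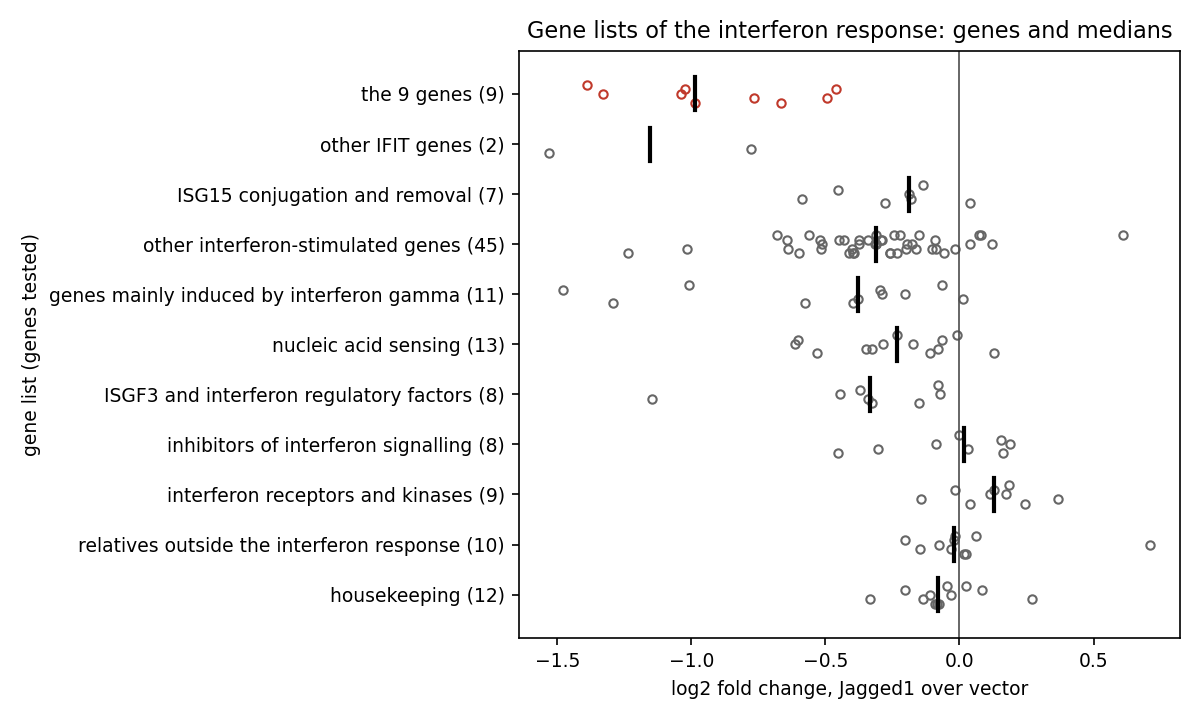
Log2 fold change of each tested gene, Jagged1 over vector, by gene list (points, spread vertically for legibility), with the list median as a black bar and the number of genes tested in brackets. The 9 genes lie between -1.39 and -0.46, while receptors and kinases, relatives outside the interferon response and housekeeping genes lie around 0.

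The genes whose pattern over the 4 libraries was nearest to that of the 9 were not among the interferon lists. Likeness was the Euclidean distance between log2 CPM centred over the 4 libraries and the median centred profile of the 9 genes, which was -0.41 and -0.44 in Jagged1 1 and 2 and 0.55 and 0.34 in vector 1 and 2. Of 10378 other genes with a mean of at least 5 CPM, the 5 nearest were Gdnf (distance 0.0889), a neurotrophic factor, Krt80 (0.104), a keratin, Manf (0.121) and Hspa5 (0.142), genes of the endoplasmic reticulum, and Hmga2 (0.149), an architectural chromatin protein. Hspa5 had 1035 and 1075 CPM in Jagged1 1 and 2, against 2068 and 1978 CPM in vector 1 and 2. With 4 libraries many genes share a profile, so the distances describe these libraries only.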

How the data were processed

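RNA of 4 libraries was grouped by the labelled virus, Jagged1 (2) and vector (2). The authors deposited raw read counts per gene symbol, made with STAR 2.6.0c and featureCounts 1.6.2 on mm10 (GRCm38), per the submitters' processing notes. Annotation release, strand setting and the treatment of reads with several matches: not given in the sources used here. Of the names, 27 had become dates and 2 were repeated. Genes were filtered with filterByExpr (minimum count 10) and scaled by TMM; CPM used the full library total times the TMM factor. Tests used edgeR 4.0.16 (glmQLFit, robust, in R 4.3.3), with Benjamini-Hochberg adjustment over 13299 genes and a threshold of 0.05; SE is the absolute log2 fold change over the square root of F. DESeq2 1.42.0 and limma 3.58.1 (voom) were alternatives. Log2 CPM used a prior count of 2. The exact 95% Poisson interval of a count of the 9 genes reached 2.16 to 14.2% of the count to either side on average, and the floor of 3 counts was 0.145 to 0.244 CPM. Positions and exon lengths came from GENCODE M21, promoter windows from RefSeq GRCm38.p6. The 9 genes and the 17 other lists were chosen with earlier results of these data known. Genes named from a list were those with the 4 largest log2 fold changes, of which 1 is not reported here, with marker genes at or near 0, and others, such as Ifnar1, Irf9, Ddx58, Tmem173 and Cmpk1, for their role or after their values were seen.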

Additional observations from a re-analysis of the deposited data

How the results depend on the processing

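All 117 log2 fold changes of the 9 genes over 13 alternatives were negative; 17 of them passed the threshold that the reported fit did not. The 117 hold the summed value of Ifit3 and Ifit3b under both names. The Jagged1 libraries were the lower 2 of the 4 in all 9 genes, so refits of the same libraries could hardly turn a sign. The number of genes called (1 as reported) was 169 without the low-count filter, 47 with DESeq2 and 17 with the replicate block. The number of the 9 called (0 as reported) was 5, 4 and 2 in that order. Without the filter these were Ifit3, Ifit3b, Rsad2, Cmpk2 and Mx1 (0.276% of all genes called lower), and with the replicate block Ifit3 and Rsad2 (adjusted p = 0.0353 each, edgeR; 0.0752%). With 1 library left out the number of genes called lay between 0 and 193, the number of the 9 called between 0 and 5, and the median of the 9 between -1.05 and -0.79; the lone library of a line was then assumed to vary like the others. The median was -0.88 with the reads of Ifit3 and Ifit3b summed. The cause of these differences was not tested. A minimum mean of 5 CPM, other scaling factors and library totals alone each gave 0 of the 9. So did leaving the 18S row out of the totals, and limma-voom. Each of these fits called 1 gene in all. That was 0.00962% of the tested genes with the minimum of 5 CPM and 0.00752% in the others. The block took the replicate number as a pair. Same-numbered libraries deviated together over all tested genes (r = 0.425), but there were 2 pairs and the labels do not say that a number marks a shared day, so the number was not treated as a pairing. Of 181 medians of other lists 8 moved by more than the spread between replicates. Interferon ligands had 0 genes past the filter and so no median.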

Other observations

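Genes induced mainly by interferon gamma included large negative values from low or uneven counts. Of 11 tested genes 10 were negative (median -0.38) and 0 passed in edgeR. At an unadjusted p under 0.05 (edgeR) 2 were lower, against 2.15% of all tested genes. In 4 the Jagged1 libraries were the lower 2 of the 4 (36.4%, against 15.1% of all tested genes and 41.7% of the 12 housekeeping genes). The median was -0.55 without Jagged1 1, -0.20 without Jagged1 2 and -0.21 without vector 1. Gbp5, a guanylate-binding protein gene, had 16 and 14 reads in Jagged1 1 and 2, against 31 and 36 in vector 1 and 2. Nos2, the inducible nitric oxide synthase gene, had 22.8 and 17.9 CPM in Jagged1 1 and 2, against 77.3 and 22.3 CPM in vector 1 and 2, so 1 vector library carried its difference. Tgtp1 was at -1.01 ± 0.51 and Gbp2 at -0.58 ± 0.20. Ciita, the regulator of MHC class II genes, had 5 and 13 reads in Jagged1 1 and 2, against 5 and 2 in vector 1 and 2, and Ido1 was at 0 in all libraries.

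Among the other interferon-stimulated genes, Ifi27l2a went against the direction of the list, with 32.95 and 46.6 CPM in Jagged1 1 and 2, against 29.1 and 22.9 CPM in vector 1 and 2 (0.61 ± 0.24). Samd9l was split by replicate number rather than by line, at 259.8 and 317 CPM in Jagged1 1 and 2, against 147 and 383 CPM in vector 1 and 2. These genes were chosen after their values were seen.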
